A study of Arabidopsis thaliana with 12 samples.

Results

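A group of 4 genes of cell wall and glycan chemistry was followed in Arabidopsis thaliana plants loaded with proline: CSLA01 (AT4G16590), GH9B11 (AT2G44560), GH9B12 (AT2G44570) and the O-fucosyltransferase family gene AT1G35510. They were chosen by name as loci with a probe of their own, with earlier results of these data known. Each of the 4 had 1 such probe, out of 691 loci measured under a single gene name. The plants were wild type of the ecotype Wassilevskija, and total RNA was read on an expression array in 12 samples, 6 after 48 h with 100 mM proline and 6 labelled as water. The comparison asks which transcripts differ when proline reaches an amount the labels call toxic. Tissue, age and growth conditions are not named in the labels, and no gene of the short lists of green tissue, root and seed markers had a single-gene probe, so the tissue was not checked by them. Whether the samples came from separate plants is not stated, so the p-values cover only the variation among these 12 samples, part or all of which could be technical.

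The plant cell wall is a network of cellulose microfibrils embedded in hemicelluloses and pectins. Glucomannans and mannans are hemicelluloses whose backbone is made in the Golgi by cellulose synthase-like proteins of the A family, to which CSLA01 belongs. Glycosyl hydrolases of family 9, subclass B, are endo-1,4-beta-glucanases that are mostly secreted and cut glucan chains in the wall. Plant proteins of the O-fucosyltransferase family resemble sugar transferases, and some relatives act in pectin or mannan synthesis, while most have no assigned substrate. Proline itself enters the wall after hydroxylation, as part of extensins and arabinogalactan proteins, but none of the words for such proteins matched the name of a locus with its own probe.

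AT1G35510 was the single gene of the 4 that passed the test, and it was higher with proline. Its deposited relative intensity in water was 0.349 in sample 1, 0.359 in sample 2, 0.0694 in sample 3, 0.195 in sample 4, 0.078 in sample 5 and 0.0734 in sample 6. With proline it was 1.18, 0.948, 1.14, 1.34, 0.16 and 0.159 in the same order. Samples 1 to 4 of the proline group were above every water sample, whereas proline samples 5 and 6 lay below water samples 1, 2 and 4, so the groups overlapped; they did not for 10.3% of the 2337 features with all 12 values. On the log2 scale after quantile normalization the level was -2.65 ± 1.02 in water and -0.92 ± 0.93 with proline (SD, n = 6 and 6). The log2 change was 1.73 ± 0.52 (SE, 95% interval 0.60 to 2.86), a 3.32-fold increase, with an adjusted p of 0.0463 in limma over all 3045 features tested. In that test 5.52% of all features passed as higher with proline and 7.65% as lower, and 10.5% of the single-name loci passed in either direction. AT1G35510 had the 9th highest change of the 608 tested loci with a single name, and 5.65% of all features had a larger absolute change. These values are those of its single-gene probe. Probe 3249, annotated to AT1G35510 and further loci, had a log2 change of opposite sign, -0.63 ± 0.27 (SE, adjusted p = 0.131 in limma).

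**Figure D1:**
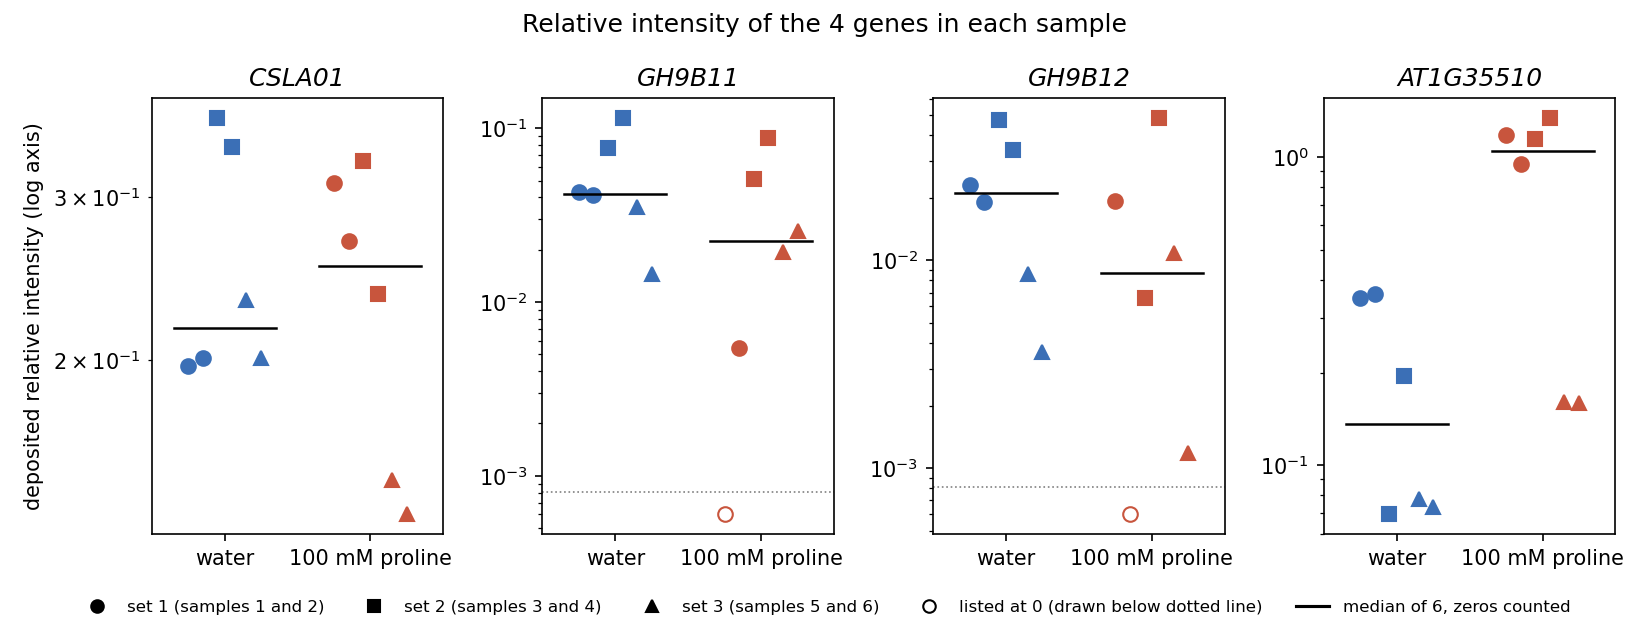
Deposited relative intensity (log axis) of CSLA01, GH9B11, GH9B12 and AT1G35510 in the 6 water and 6 proline samples; symbols mark the sets of samples, open symbols values listed at 0, and lines the group medians with zeros counted. AT1G35510 is higher with proline within each set, from a water median of 0.136 to a proline median of 1.04, although proline samples 5 and 6 lie below 3 of the water samples, and the groups of all 4 genes overlap.

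The samples fell into 3 sets of neighbouring numbers, 1 and 2, 3 and 4, and 5 and 6. Partners in a set and group differed by a median of 0.235 to 0.413 on the log2 scale, against 0.495 to 0.846 between sets of the same group. The third set was also dimmer, with array medians of 0.0325 to 0.0345 against 0.0678 to 0.0963 in the other arrays. Values at 0 numbered 153 to 235 per water array and 352 to 424 per proline array.

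Within each set, both proline samples were above both water samples for AT1G35510, which held for 9.88% of these 2337 features. All 6 numbered pairs were higher with proline, as they were for 12.3% of the features. The log2 differences were 1.21, 0.85, 3.98, 2.54, 0.89 and 0.91 in pairs 1 to 6. Pairs 3 and 4 thus stood above the others, and water sample 3, with an intensity of 0.0694, was the lowest value of the gene. By set the change was 1.03, 3.26 and 0.90. A limma test of whether the change differed between the sets gave an adjusted p of 0.0651, and 16.8% of features passed that test.

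Whether the increase of AT1G35510 passed depended on how the likeness within sets was modelled. With the set as a fixed block, which takes partners as independent, it passed with an adjusted p of 0.0149 in limma. When partners of a set were fitted as a random block (estimated correlation 0.593), the adjusted p in limma was 0.162, and 2.69% of features passed. With set means as the samples it was 0.335, and no feature passed (472 had an unadjusted p under 0.05). An exact two-sided permutation test of this gene alone gave p = 0.0173 over 12 samples and p = 0.2 over set means, where 0.1 is the smallest p that 3 against 3 allows. Without set 2 the log2 change was 0.98 ± 0.56 (SE, adjusted p = 0.36 in limma). The call was also lost on leaving out any 1 of water samples 3 to 6 or proline samples 1 to 4, with an adjusted p of at most 0.0877 and log2 changes of 1.43 to 1.76. It was lost with no normalization between arrays too, where the change was 2.02 (adjusted p = 0.156).

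**Figure D2:**
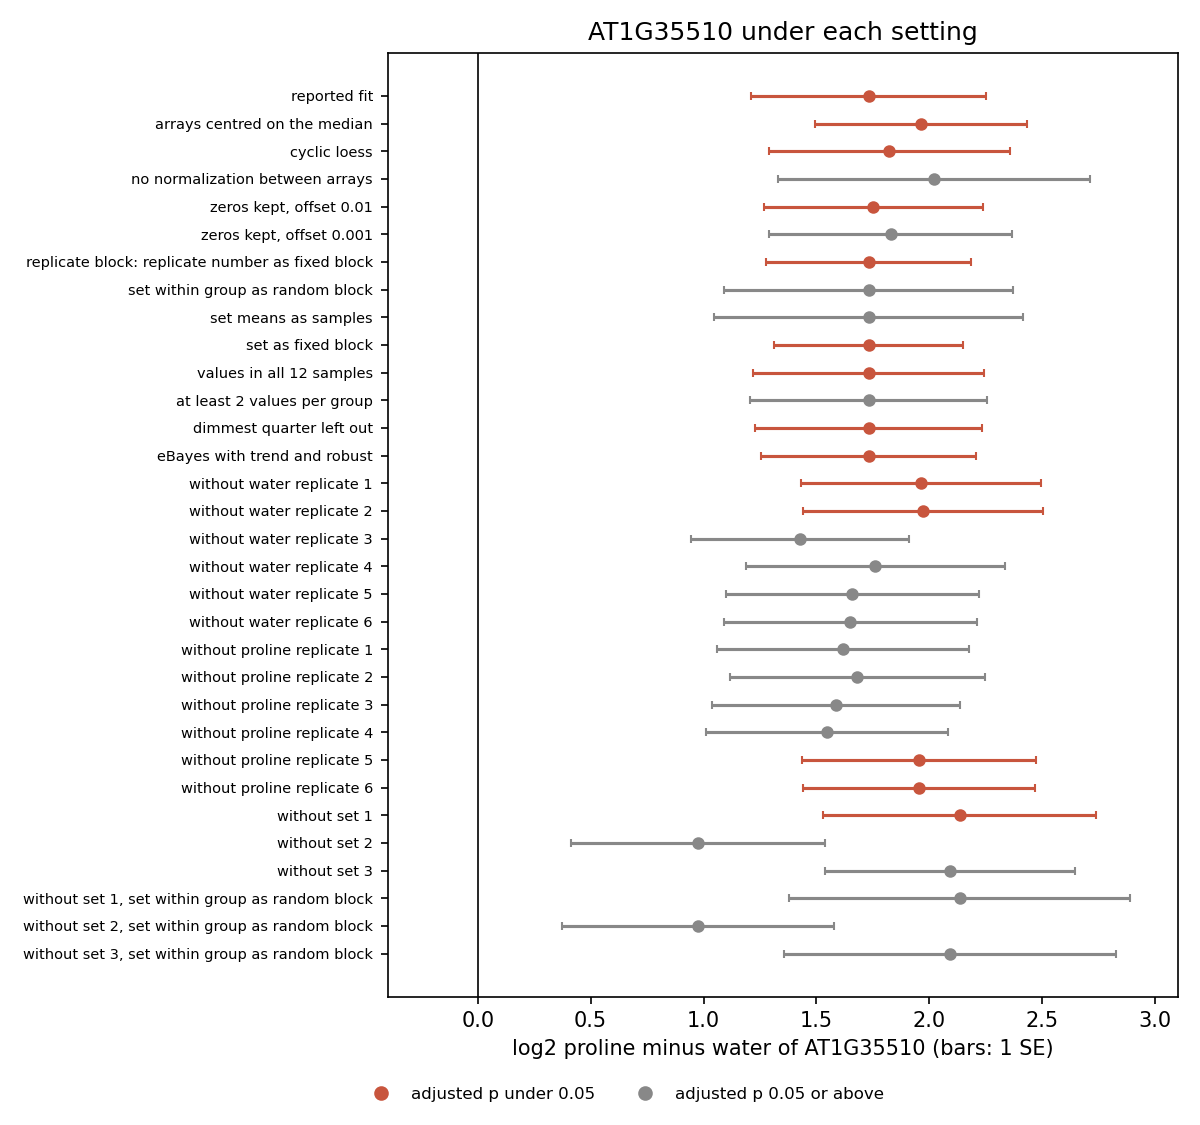
Log2 change of AT1G35510, proline minus water, in the reported fit and under 31 alternative settings; points are limma estimates, bars 1 SE, and colour shows whether the adjusted p was under 0.05. All estimates are above 0, from 0.98 to 2.14, and 18 of the 31 alternatives do not pass.

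CSLA01, the gene of the mannan-synthase family, did not pass the test. Its intensity in water was 0.197, 0.201, 0.366, 0.34, 0.232 and 0.201 in samples 1 to 6. With proline it was 0.311, 0.269, 0.329, 0.236, 0.148 and 0.136. The groups overlapped throughout: proline was higher in samples 1 and 2 and lower in samples 3 to 6. The normalized log2 level was -1.94 ± 0.42 in water and -2.26 ± 0.18 with proline (SD, n = 6 and 6), a change of -0.33 ± 0.22 (SE) with a 95% interval of -0.80 to 0.15 and an adjusted p of 0.337 in limma. The median change of all tested features was -0.16, so CSLA01 lay -0.17 from that middle, and 68.3% of features had a larger absolute change.

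After normalization CSLA01 was lower with proline in 5 of 6 pairs, and at least 5 of 6 pairs were lower for 33.4% of the features with all values. The differences were 0.29, -0.03, -0.31, -0.62, -0.65 and -0.64 in pairs 1 to 6. By set the change went from 0.13 in the first through -0.47 in the second to -0.64 in the third, and limma's test of a difference between sets gave an adjusted p of 0.156. Without set 1 the change was -0.57 (adjusted p = 0.0638 in limma), the lowest adjusted p among its alternatives, and without set 3 it was -0.17 (0.739). With arrays centred on their median CSLA01 had a change of -0.20, which was -0.04 relative to the middle of all features there, so the difference nearly vanished on that scale.

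GH9B11 and GH9B12, the endoglucanase genes, are neighbours on chromosome 2, where the gene table places GH9B10 before GH9B11 and GH9B11 next to GH9B12. Both had dim probes. Over the 6 water arrays the median percentile of the signal among probes above 0 was 38.8 for GH9B11 and 13.1 for GH9B12, which measures brightness and not the amount of transcript.

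The intensity of GH9B11 in water was 0.0428, 0.0413, 0.0774, 0.115, 0.0351 and 0.0146 in samples 1 to 6. With proline it was listed at 0 in sample 1 and stood at 0.00544, 0.0511, 0.0884, 0.0194 and 0.0255 in samples 2 to 6. The low values were thus those of the first set, and the other proline samples lay inside the range of water. With the 0 left out as missing, the log2 change was -0.63 ± 0.71 (SE, n = 6 and 5), with a 95% interval of -2.17 to 0.91 and an adjusted p of 0.58 in limma. The change was -3.03 in set 1, where it rests on proline sample 2 alone, -0.35 in set 2 and -0.02 in set 3. Limma's test of a difference between sets gave an adjusted p of 0.061. Without proline sample 2 the change was 0.13 (adjusted p = 0.859 in limma), with the water samples of set 1 kept. Proline sample 1, listed at 0, did not enter that fit. Without set 1 as a whole the change was -0.20 (adjusted p = 0.772 in limma), or 0.04 relative to the middle of all features there. The sign thus depended on which samples were left out. Of the 5 pairs with values, 4 were lower and 1 higher. With zeros kept, the change was -0.53 for an offset of 0.01 and -1.13 for 0.001. Relative to the middle of all features GH9B11 lay at -0.47 with zeros left out, at -0.52 with zeros kept and an offset of 0.01, and at -1.09 with an offset of 0.001, so its place with zeros kept depended on the offset. With set means as samples its change was -1.13 (adjusted p = 0.604 in limma).

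GH9B12 had intensities of 0.0231, 0.019, 0.0472, 0.0338, 0.0086 and 0.00362 in water samples 1 to 6. With proline the values were 0.0194 in sample 1, 0 in sample 2, then 0.00658, 0.0485, 0.0108 and 0.00118. The partners of each proline set differed widely, and the groups overlapped. The log2 change was -0.43 ± 0.66 (SE, n = 6 and 5), with a 95% interval of -1.88 to 1.01 and an adjusted p of 0.699 in limma. Of the 5 pairs with values, 3 were lower and 2 higher. Without proline sample 6 the change was 0.11 (adjusted p = 0.91 in limma), with water sample 6 kept. Without set 3 as a whole it was -0.30 (adjusted p = 0.807 in limma), so the sign depended on which samples were left out. Relative to the middle of all features GH9B12 lay at -0.27 with zeros left out. With zeros kept it lay at -0.03 for an offset of 0.01 and -0.28 for 0.001.

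**Figure D3:**
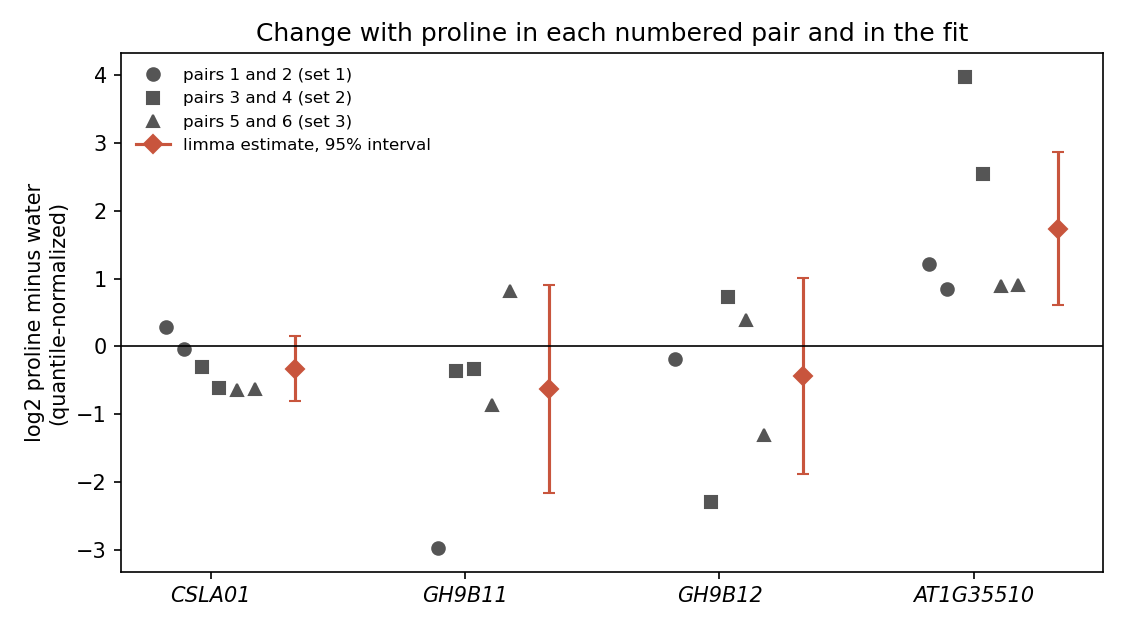
Log2 difference, proline minus water, after quantile normalization for each numbered pair (grey, symbols by set) and the limma estimate with its 95% interval (red) for the 4 genes. The pairs of AT1G35510 run from 0.85 to 3.98, those of CSLA01 from -0.65 to 0.29, and those of GH9B11 and GH9B12 lie on both sides of 0.

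The responses of the neighbouring GH9B11 and GH9B12 were compared within samples. The change of GH9B12 minus that of GH9B11 was -0.60 on the log2 scale over the 10 samples with both values (SD of the within-sample difference 0.54 in water and 1.65 with proline). An exact two-sided permutation test gave p = 0.438 (0.657 after Benjamini-Hochberg adjustment over the 6 pairs of genes), which does not show that the genes act alike. These 10 samples leave out proline samples 1 and 2, where 1 of the genes was at 0, and so the low value of GH9B11 in sample 2. The sign was not settled, as the difference was 0.083 without proline sample 6. With set means it was 0.73, but that value is not a comparison within samples. In proline set 1 it takes GH9B12 from sample 1 and GH9B11 from sample 2, because the other values were at 0. The change of AT1G35510 exceeded that of CSLA01 by 2.06 (exact permutation p = 0.0152, adjusted 0.0912), that of GH9B11 by 2.25 (0.0649, adjusted 0.13) and that of GH9B12 by 2.12 (0.0455, adjusted 0.13). None of the 6 differences passed after adjustment. With arrays centred on their median these 3 differences had an adjusted exact permutation p of 0.039 each, and over set means of 0.4.

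The other GH9B loci with single-gene probes, GH9B8 (AT2G32990) and GH9B16 (AT4G38990), belong to the same subclass of endoglucanases, and zeros kept both out of the test. GH9B8 had intensities of 0.0451, 0.044, 0.0193, 0.0322, 0.0136 and 0.0149 in water, and with proline 0.0391 in sample 1, 0 in samples 2, 3 and 4, 0.0171 in sample 5 and 0.0104 in sample 6. GH9B16 had 0.0224, 0.0376, 0.0511, 0.07, 0.00893 and 0.00371 in water, and with proline 0.0774 in sample 1, 0.00536 in sample 5 and 0 in the other 4. Where a proline value was present it was within or above the range of water for GH9B16, and 1 of 3 was below it for GH9B8.

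All 4 GH9B loci were therefore above 0 in every water sample and listed at 0 in some proline samples: GH9B11 in 1, GH9B12 in 1, GH9B8 in 3 and GH9B16 in 4. Of the 24 values in each group, 0 were at 0 in water and 9 with proline. The zeros fell on proline sample 1 for 1 locus, sample 2 for 3, samples 3 and 4 for 2 each, sample 6 for 1, and sample 5 for none. Zeros were more frequent with proline across the array. The same pattern, with all water values above 0 and at least 1 proline value at 0, was found in 17.0% of all 3438 features and in 32.2% of the 1381 features below the 40th percentile of brightness in water, against 2.59% of all features with the reverse. What a value of 0 stands for on this array was not tested, and the zeros entered no change given for these loci except where zeros are said to be kept.

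**Figure D4:**
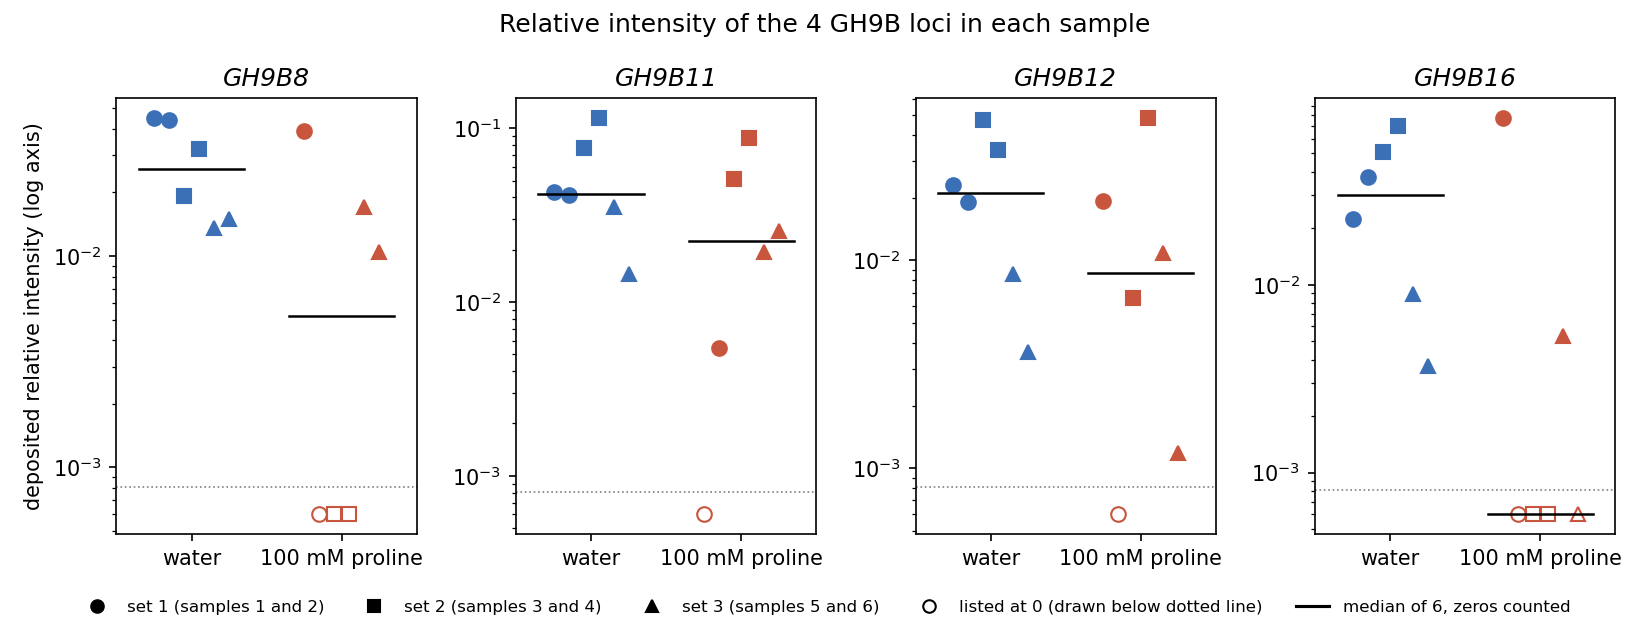
Deposited relative intensity (log axis) of GH9B8, GH9B11, GH9B12 and GH9B16 in each sample; symbols mark the sets, open symbols under the dotted line values listed at 0, and lines the group medians with zeros counted. Each locus is above 0 in all 6 water samples, and 9 of the 24 proline values are at 0.

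The cell wall lists were made from words in the gene names, which AT1G35510 did not match, so it is not counted here. They held 5 measured loci, which were CSLA01 and the 4 GH9B loci. Of the 3 that could be tested in limma none passed and none had an unadjusted p under 0.05, at a background of 13.2% of features passing in either direction. All 3 had a change below 0, as had 59% of all tested features, and their median was -0.43 against -0.16 for all. Wall-related loci picked after the names on the array had been seen were RALFL32 and CKS. RALFL32, of the RALF family of signalling peptides, had a change of -0.42 ± 0.29 (SE, n = 6 and 6, adjusted p = 0.338 in limma) and was lower in all 6 pairs after quantile normalization, as were 18.8% of features with all values. Its normalized difference in pair 2 was only -0.0039, and its deposited intensity was higher with proline in pairs 1 and 2, at ratios of 1.04 and 1.17. CKS, which activates the sugar KDO for the pectin rhamnogalacturonan II, had a value above 0 in 4 water samples and 1 proline sample, and was not tested.

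The profiles most like the members' were sought by Pearson correlation of normalized log2 values over the 12 samples, among 445 other single-name loci with all values. For AT1G35510 they were FZL, a dynamin-like protein of the chloroplast (r = 0.933), AT3G19810 (0.932) and AT1G49850 (0.928). The correlations without the group means were 0.907, 0.896 and 0.864, so they were nearly as high within the treatments, where the samples fall in the same 3 sets for every locus. The changes of these loci with proline were 0.51, 0.37 and 1.61, and none passed (adjusted p = 0.189, 0.24 and 0.0537 in limma). For CSLA01 they were UBA1A, an RNA-binding protein (0.926), AT2G47390 (0.909) and AT4G00870 (0.906), with changes of -0.75, -0.98 and -0.63 that did not pass either (adjusted p = 0.107, 0.0529 and 0.0958). GH9B11 and GH9B12 lacked a value in 1 sample each and had no such search.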

How the data were processed

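The authors deposited 1 table of processed values, 3439 probes in 12 columns, holding relative intensity from 0 to 61.4 on what the values show to be a linear scale. For the array, background correction, normalization and genome build, the method was not given in the sources used. Probes were named from the platform's annotation, which can be old, updated through gene identifiers to TAIR10.1 for 690 of 692 single-gene probes. Zeros were taken as missing, the others log2-transformed and quantile normalized between arrays, and probes of a locus averaged. Features with at least 4 values per group were tested with limma 3.58.1 (lmFit, eBayes; R 4.3.3, statmod 1.5.0), without covariates, with Benjamini-Hochberg adjustment over all features and a call at an adjusted p under 0.05. The fit was tested on simulated data. Those values were drawn independently for each sample, without sets or missing values, so that test does not cover the likeness within sets. Plots used Python 3.11.15 and matplotlib 3.10.9. The number of arrays limits the precision.

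For the pair differences and the replicate block the replicate numbers were taken to pair the samples, while the reported fit was unpaired. The choice rested on deviations from the group means, which correlated in each of the 6 same-numbered pairs (r = 0.134 to 0.256 over 2337 features). Each sample correlated best with its own number in the other group. Partners of a set, which carry different numbers, correlated at 0.29 to 0.54 in water and -0.06 to 0.34 with proline. The labels do not state the pairing. Named were the 4 members, every tested locus of the 3 word lists, and the 3 loci most like each member. GH9B8 and GH9B16 are on the lists but were not tested, and RALFL32 and CKS stand outside this rule. The members, lists and settings were chosen with earlier results of these data known. The test between sets, the comparisons with AT1G35510, the counts of zeros, the random block without each set, and leaving out single samples in the comparison of GH9B12 with GH9B11 were added after seeing the data. No sequences were used here.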

Additional observations from a re-analysis of the deposited data

Results flagged for a closer look

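Among the 10 groups of values tested (the genes named with a test, in each treatment), 1 sample lay farther from the others of its group than Dixon's 95% critical gap (0.761 of the range, with a critical value of 0.71 for 5 values); chance alone gives such a gap in about 1 of 20 groups. It was proline sample 2 of GH9B11, at -8.16 on the normalized log2 scale against -4.81 in the nearest sample. Its partner, proline sample 1, was listed at 0 for this gene.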

How the results depend on the processing

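Over 31 alternatives CSLA01 (-0.57 to -0.14) was below 0 and short of the threshold, and AT1G35510 (0.98 to 2.14, adjusted p 0.0149 to 0.685) was above 0; GH9B11 ran from -1.39 to 0.13 over 30 and GH9B12 from -0.90 to 0.11 over 29, none passing. AT1G35510 did not pass with no normalization between arrays (2.02), zeros kept with an offset of 0.001 (1.83), the set as random block, set means or at least 2 values per group (1.73 each), without set 2 (0.98) or set 3 (2.09), and, with the random block, without set 1 (2.14), set 2 (0.98) or set 3 (2.09). The replicate block, pairing samples by number, gave 1.73 (adjusted p = 0.0457 in limma) and changed no member's call. Leaving out single samples gave 1.43 to 1.97 for AT1G35510, -0.96 to 0.13 for GH9B11, -0.90 to 0.11 for GH9B12 and -0.45 to -0.25 for CSLA01. For the GH9B12 change minus that of GH9B11 it gave -1.04 to 0.083. With set means that difference was 0.73, where proline set 1 takes the 2 genes from different samples. The features passing numbered 401, against 20 with no normalization, 82 with the random block, 0 with set means, 783 with the set as fixed block, 29 without set 2, 193 without set 3, 245 to 480 without single samples, and 223, 6 and 9 with the random block without sets 1, 2 and 3. Of the calls, 168 were higher and 233 lower; with arrays centred on the median it was 214 and 128, with cyclic loess 224 and 190, with zeros kept 249 and 210 at an offset of 0.01, and 183 and 143 at 0.001. No wall-list locus passed under any of the 31, and AT1G35510 is not on those lists. The cause was not tested. GH9B11 and GH9B12 had no value with all 12 samples required, nor GH9B12 with the dimmest features left out.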

Other observations

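Probes annotated to several genes name no gene here. Probe 1466 is annotated to 4 neighbouring genes of the GH9B subclass. It was above 0 in all 6 water samples, from 0.00428 to 0.0535 with a median of 0.0144, and listed at 0 in 3 of 6 proline samples, with 0.0138 as the highest. All water values above 0 with at least 1 proline value at 0 was found in 17.0% of all features. Below the 40th percentile of brightness in water it was 32.2%. In deposited values with zeros counted, probe 1466 was lower with proline in every numbered pair. After normalization all pairs were lower for 18.8% of features with all 12 values, which do not include this probe. In proline sample 4 it was at 0, where the single-gene probes of GH9B11 and GH9B12 stood at 0.0884 and 0.0485. Probe 3249 is annotated to AT1G35510 and 2 further loci. Its intensity was 0.432 to 1.08 in water and 0.316 to 0.657 with proline, and limma gave a change of -0.63 ± 0.27 (SE, log2, adjusted p = 0.131). Its deposited median was 0.535 in water and 0.628 with proline. With proline it was higher in samples 1 and 2 (0.655 and 0.644 against 0.432 and 0.436) and lower in samples 3 to 6. The sign of the limma change was opposite to that of the single-gene probe of AT1G35510. Which of the annotated loci probe 3249 reads was not tested.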
